A study of Mus musculus with 6 samples.

Results

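The genes described here are 10 that write, maintain or remove DNA methylation, or that form the enzyme core of Polycomb repressive complex 2 (PRC2),. They are compared between dedifferentiated fat cells and mature fat cells of the mouse. They are Dnmt1, Dnmt3a, Dnmt3b, Uhrf1, Tet1, Tet2, Tet3, Ezh1, Ezh2 and Suz12. Their probe sets were those whose annotation named only that gene symbol, which gave 30 of the 45037 probe sets tested and 10 of the 18193 genes that had a probe set of their own. DFAT cells (dedifferentiated fat cells) were a line obtained by ceiling culture of mature adipocytes of GFP transgenic mice and were collected at semiconfluence, on 3 arrays. AC were primary mature adipocytes isolated from mouse fat tissue, on 3 arrays. The strain, age and sex of the mice were not given in the sources used here, and neither was the source of the replicate arrays (separate mice, separate cultures or repeats of the same RNA), so the p-values speak for the spread among these 6 arrays and no further. Both groups were measured on the Affymetrix GeneChip Mouse Genome array, on which a probe set is a group of short oligonucleotides designed to report the transcripts of a gene, and values are log2 RMA values as deposited, so that a difference of 1 is a doubling.

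DNA methyltransferases add methyl groups to cytosine, mostly at CpG. Dnmt1 copies the pattern onto the new strand after replication and is brought to hemimethylated sites by Uhrf1, whereas Dnmt3a and Dnmt3b set methylation on sites that lacked it. The TET enzymes oxidise methylcytosine, using oxygen and 2-oxoglutarate, and so begin its removal. In PRC2, Ezh2 or its paralog Ezh1 methylates histone H3 on the lysine known as H3K27, and Suz12 is a core subunit without which the complex is not active. Ezh2 is known to prevail in dividing cells and Ezh1 in resting, differentiated ones, and the mature adipocyte is a cell that does not divide.

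The 6 arrays had median values between 4.92 and 5.11. Pearson correlations over all probe sets were 0.995 to 0.996 among the DFAT arrays and 0.991 between AC replicates 2 and 3, while AC replicate 1 correlated at 0.969 to 0.971 with the other two AC arrays. White adipocyte markers, 18 of 18 lower in DFAT cells, averaged 6.44 to 6.49 on the DFAT arrays and 12.52 to 12.68 on the AC arrays, with no overlap. AC also carried RNA of other cells. Endothelial markers (18 of 18 lower in DFAT cells) averaged 4.44 to 4.45 on the DFAT arrays and 9.62, 7.88 and 7.74 on AC replicates 1, 2 and 3, and macrophage and leukocyte markers (15 of 18 lower) averaged 4.23 to 4.31 on the DFAT arrays and 6.38, 7.94 and 8.05 on the AC arrays. Epithelial and mammary markers (15 of 17 lower) averaged 4.35 to 4.43 on the DFAT arrays and 8.92, 8.33 and 8.29 on the AC arrays. Stromal progenitor markers were divided, with 7 of 15 higher in DFAT cells, 5 lower and 3 not past the test. Among the lower ones Dcn averaged 4.77 in DFAT cells and 12.91 in AC, and among the higher ones Thy1 averaged 12.20 in DFAT cells and 7.25 in AC. S phase and mitosis genes, 25 of 25 higher in DFAT cells, averaged 10.09 to 10.19 on the DFAT arrays and 5.22 to 5.48 on the AC arrays, and 15 of them were at background level in AC. Background level was taken per array as the 95th percentile over 140 probe sets for 100 genes that belong to sense organs, the lens, the retina or sperm, which came to 5.70 to 5.83 on the DFAT arrays and 5.75 to 5.98 on the AC arrays. It stands in for a detection call, which RMA values do not hold.

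The maintenance pair and the PRC2 genes Ezh2 and Suz12 were higher in DFAT cells, whereas Ezh1, Tet2 and Dnmt3a were lower. By the probe set of highest mean, Uhrf1 was higher by 5.95, Dnmt1 by 2.68, Ezh2 by 2.51, Suz12 by 0.89 and Tet1 by 0.72 on the log2 scale, whereas Ezh1 fell by 2.18, Tet2 fell by 1.51 and Dnmt3a fell by 0.93. Dnmt3b and Tet3 did not pass the test. That is 5 genes higher, 3 lower and 2 not past the test of limma at an adjusted p of 0.05, over a background in which 46.4% of all genes were called, 22.6% higher and 23.8% lower in DFAT cells. Over probe sets, 13 of the 30 were higher and 7 lower, where 38.4% of all probe sets were called, 20.3% higher and 18.1% lower. By the fold rule of the study's methods, a difference of over 2 log2 units with no test, 6 of the 30 were higher, against 3.86% of all probe sets, and 2 were lower, against 4.45%. Those 6 were repeated readings of only 3 genes, Dnmt1, Uhrf1 and Ezh2. With 1 probe set per gene the rule gave 3 genes higher and 1 lower, and the share over all genes was not computed. The median difference was 0.42 over the 10 genes, beside -0.10 over all genes, and 0.06 over the 30 probe sets, beside -0.06 over all probe sets. The values of the 3 DFAT and 3 AC arrays did not overlap in 21 of the 30 probe sets, and they did not in 51.9% of all probe sets. In bulk samples such as these, fewer cells of a type and less RNA per cell cannot be told apart.

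**Figure D1:**
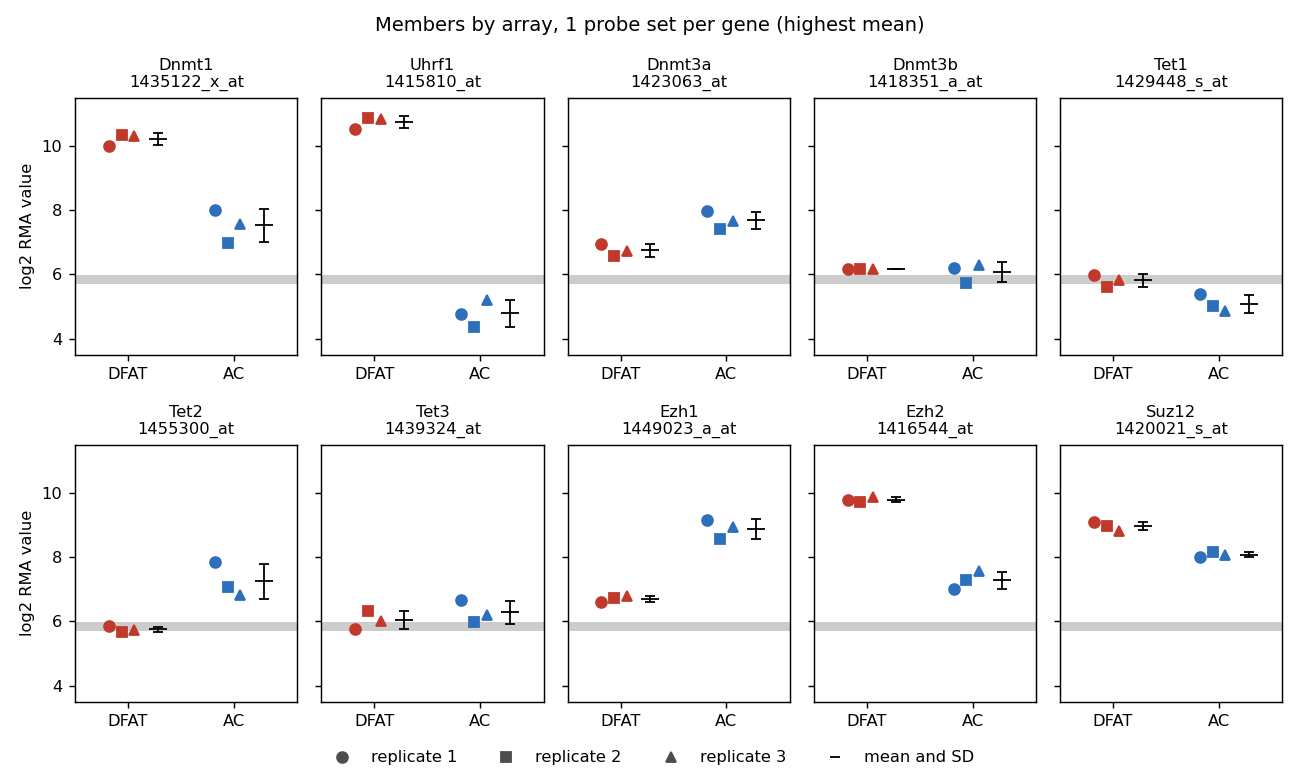
Log2 RMA value of each of the 10 genes on the 3 DFAT arrays (red, left) and the 3 AC arrays (blue, right), by the probe set of highest mean. Marker shapes give the replicate, bars the mean ± SD of 3 arrays and the grey band the range of the background level over the 6 arrays. Uhrf1 on the AC arrays lies between 4.37 and 5.21, under the band, and Tet2 on the DFAT arrays lies between 5.67 and 5.85, at the lower edge of the band.

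The promoters of 4 members that were higher in DFAT cells and 2 that were lower are shown, so that the sequence before each start can be read beside the direction of the gene. RefSeq start sites on GRCm38.p6 gave 15 promoter windows for the 10 genes, each with 250 bases before the start and 50 after it. They were searched on both strands for CCAAT and for the 4 letter forms TTTCCCGC, TTTCGCGC, TTTGCCGC and TTTGGCGC, which are classical binding sequences of the E2F factors, the regulators of S phase genes. The windows are printed up to base 20 after the start, on the strand of the gene, and capitals mark an E2F form. For the higher genes, the windows printed were those that held an E2F form. They are Uhrf1 window 2 of 2 (chr17:56304063-56304332, plus strand), Dnmt1 window 3 of 3 (chr9:20952604-20952873, minus strand), Ezh2 (chr6:47595011-47595280, minus strand), Suz12 (chr11:79992856-79993125, plus strand), Ezh1 (chr11:101226444-101226713, minus strand) and Tet2 (chr3:133544371-133544640, minus strand).
Uhrf1: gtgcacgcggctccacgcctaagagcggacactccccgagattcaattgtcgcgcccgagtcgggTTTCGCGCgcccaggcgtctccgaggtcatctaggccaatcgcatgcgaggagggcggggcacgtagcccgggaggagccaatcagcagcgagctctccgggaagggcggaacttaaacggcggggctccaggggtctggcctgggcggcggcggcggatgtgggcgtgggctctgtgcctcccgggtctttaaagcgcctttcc
Dnmt1: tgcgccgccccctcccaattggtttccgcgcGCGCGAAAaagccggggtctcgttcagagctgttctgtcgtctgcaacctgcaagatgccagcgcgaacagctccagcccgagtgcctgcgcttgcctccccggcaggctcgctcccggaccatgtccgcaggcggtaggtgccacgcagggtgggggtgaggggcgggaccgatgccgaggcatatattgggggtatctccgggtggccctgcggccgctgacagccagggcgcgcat
Ezh2: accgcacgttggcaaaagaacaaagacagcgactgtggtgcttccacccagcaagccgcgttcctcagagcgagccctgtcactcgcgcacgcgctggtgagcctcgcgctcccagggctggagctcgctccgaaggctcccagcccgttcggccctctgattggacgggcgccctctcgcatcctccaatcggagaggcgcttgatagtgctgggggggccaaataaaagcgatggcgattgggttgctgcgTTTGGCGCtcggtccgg
Suz12: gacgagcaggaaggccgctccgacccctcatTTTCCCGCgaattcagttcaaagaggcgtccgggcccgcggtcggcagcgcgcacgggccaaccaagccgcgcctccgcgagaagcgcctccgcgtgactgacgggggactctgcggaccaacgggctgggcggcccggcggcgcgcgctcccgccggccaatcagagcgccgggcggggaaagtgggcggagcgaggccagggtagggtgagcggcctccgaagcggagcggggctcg
Ezh1: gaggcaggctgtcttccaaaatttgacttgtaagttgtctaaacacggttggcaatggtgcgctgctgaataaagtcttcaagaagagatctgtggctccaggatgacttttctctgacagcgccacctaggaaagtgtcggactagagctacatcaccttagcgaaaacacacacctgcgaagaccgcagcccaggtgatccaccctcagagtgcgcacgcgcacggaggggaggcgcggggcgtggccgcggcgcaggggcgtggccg
Tet2: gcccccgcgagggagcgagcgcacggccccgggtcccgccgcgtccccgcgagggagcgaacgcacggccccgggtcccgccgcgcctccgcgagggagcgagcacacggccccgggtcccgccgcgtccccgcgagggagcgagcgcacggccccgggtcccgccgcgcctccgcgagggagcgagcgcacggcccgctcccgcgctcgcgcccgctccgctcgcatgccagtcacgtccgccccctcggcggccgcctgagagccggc

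The E2F letters occurred in windows of Uhrf1, Dnmt1, Ezh2 and Suz12, which were 4 of the 5 genes higher in DFAT cells, and in none of the windows of the other 6 members. Window 1 of Uhrf1 and windows 1 and 2 of Dnmt1 held no E2F form. Tet1, also higher in DFAT cells, was without a match and was not printed. In Uhrf1 the match began at position -185 from the start, and in Suz12 at -219. In Dnmt1 the capitals at -219 are the form TTTCGCGC read on the opposite strand, and a further match lay at position 34, past the printed bases. In Ezh2 the match began at position 4, just inside the transcribed part. Of all 32851 mouse promoter windows of this length 2.26% held an E2F form, and of the 8701 windows with at least 20 CpG, as these 4 had (31 to 41), 5.15% did. Of the genes measured on the arrays, 14452 were matched to a promoter window and 3741 were not. Among the matched genes, 5.91% of those higher in DFAT cells, 2.99% of those lower and 3.26% of those not called held an E2F form. CCAAT, found in windows of Dnmt1, Uhrf1, Ezh2, Suz12 and Tet3, is a common sequence that 37.4% of all windows held. The windows of Ezh1 and Tet2 held neither sequence, although that of Tet2 had 57 CpG. These are matches of letters, and binding was not measured.

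Uhrf1, the reader of hemimethylated DNA, had the greatest difference of the 10 genes. Probe set 1415810_at read 10.52, 10.87 and 10.83 on the DFAT arrays and 4.78, 4.37 and 5.21 on the AC arrays. It was thus far above background level on all 3 DFAT arrays and at background level on all 3 AC arrays. The difference of 5.95 (95% confidence interval 5.43 to 6.47, limma adjusted p = 5.97e-07) rests on AC values without a measured level, and against the background level of the AC arrays DFAT cells were at least 30.0-fold higher. The other Uhrf1 probe set, 1415811_at, read 8.73, 8.96 and 8.82 in DFAT cells and 4.30, 4.15 and 4.49 in AC, again at background level in AC, and was at least 8.03-fold higher in DFAT cells (adjusted p = 2.9e-07).

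Dnmt1, the maintenance methyltransferase, was higher in DFAT cells by all 3 of its probe sets, and unlike Uhrf1 it was above background level on every AC array. Probe set 1422946_a_at read 10.14, 10.13 and 10.14 on the DFAT arrays and 7.65, 7.10 and 7.22 on the AC arrays, a difference of 2.81 (2.43 to 3.20, adjusted p = 6.41e-06) or 7.04-fold. Probe set 1435122_x_at, the brightest, read 9.99, 10.33 and 10.30 in DFAT cells and 8.02, 6.99 and 7.57 in AC. The 3 AC values spread over about a log2 unit, yet the highest of them lay well under the lowest DFAT value, and the difference was 2.68 (2.09 to 3.27, adjusted p = 8.77e-05). Probe set 1447877_x_at gave 2.69 (adjusted p = 1.85e-05). The suffix x_at marks probe sets whose probes can bind other transcripts too, and 1422946_a_at does not carry it.

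The S phase and mitosis genes given above moved in the same direction as Uhrf1, Dnmt1 and Ezh2, with a median difference of 4.90. Their part in the result was not tested. By the distance between profiles over the 6 arrays, each centred on its own mean, the genes nearest to Uhrf1 among 18192 were Foxc2 (root mean square distance 0.13 log2 units), Kif20a (0.14) and Tk1 (0.14). Those nearest to Dnmt1 were Mcm7, Pafah1b3 and Sfxn3 (0.15 each), and those nearest to Ezh2 were Foxf2, Dnaaf2 and Arhgdib (0.06 each). Kif20a is a kinesin of cytokinesis, Tk1 a thymidine kinase of S phase and Mcm7 a subunit of the replicative helicase, while Foxc2 and Foxf2 are forkhead transcription factors of mesenchyme. With 2 groups such a distance is set mostly by the size of the step between them.

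The de novo enzymes did not follow Dnmt1. Dnmt3a read 6.96, 6.56 and 6.72 on the DFAT arrays and 7.97, 7.42 and 7.65 on the AC arrays by probe set 1423063_at. Every DFAT value lay under every AC value, and the difference was -0.93 (-1.36 to -0.51, adjusted p = 0.00466). Probe set 1423064_at read 5.75, 5.82 and 5.86 in DFAT cells and 6.50, 6.41 and 6.91 in AC (difference -0.80, adjusted p = 0.0054), and 1460324_at read 5.85, 5.57 and 5.26 in DFAT cells and 6.84, 6.19 and 6.42 in AC (-0.92, adjusted p = 0.011). The remaining Dnmt3a probe sets had values of -0.41 (1423066_at, adjusted p = 0.0813) and -0.17 (1423065_at, adjusted p = 0.454) and did not pass the test, although 1423066_at passed without AC replicate 3 (-0.56, adjusted p = 0.0201). When the arrays were centred on their spiked hybridization controls in place of the deposited scaling, none of the 3 called Dnmt3a probe sets still passed. Their differences were then -0.47 (1423063_at, adjusted p = 0.151), -0.34 (1423064_at, adjusted p = 0.364) and -0.46 (1460324_at, adjusted p = 0.183).

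Dnmt3b, the de novo enzyme best known from the early embryo, was close to background level in both groups. Its brighter probe set, 1418351_a_at, read 6.17, 6.18 and 6.18 on the DFAT arrays and 6.19, 5.72 and 6.30 on the AC arrays. The groups overlapped, and the difference of 0.11 had an interval of -0.29 to 0.51 (adjusted p = 0.675), which leaves room for a change of either sign smaller than that of Dnmt3a. Probe set 1449052_a_at read 5.84, 5.58 and 5.82 in DFAT cells and 5.72, 5.22 and 5.45 in AC, at background level there (difference 0.29, adjusted p = 0.221; without AC replicate 1, 0.41 and 0.0426). Taken within each array, Dnmt1 minus Dnmt3a was greater by 3.61 in DFAT cells than in AC, with an SD over arrays of 0.39 in DFAT cells and 0.24 in AC. A scaling of the whole array cancels in this quantity. All 3 DFAT values lay above all 3 AC values, and the exact permutation test gave p = 0.1 (two-sided, n = 3 each), the smallest that 3 against 3 arrays can give. Both genes had already separated the groups, in opposite directions, so this outcome was fixed in advance and adds no support.

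The TET enzymes differed among themselves. Tet2, which is widely expressed in blood cells and other tissues, was lower in DFAT cells by both of its probe sets. Probe set 1455300_at read 5.85, 5.67 and 5.74 on the DFAT arrays and 7.87, 7.09 and 6.82 on the AC arrays, so DFAT cells were near background level while AC were clear of it. The difference was -1.51 (-2.11 to -0.91, adjusted p = 0.00217). Probe set 1438781_at read 4.98, 5.09 and 4.92 in DFAT cells, at background level on all 3 arrays, and 8.25, 6.68 and 6.67 in AC, which was at least 2.70-fold higher in AC than the background level of the DFAT arrays (adjusted p = 0.00281).

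AC replicate 1 gave the highest AC value for both Tet2 probe sets, and it was also the AC array with the highest endothelial and epithelial and the lowest macrophage markers. Without it the Tet2 differences were -1.20 (adjusted p = 0.000175) and -1.68 (adjusted p = 1.28e-05), with DFAT cells still the lower group. Over all members, AC replicate 1 was the highest AC array in 20 of the 30 probe sets, against 33.4% of all probe sets. The SD among AC arrays exceeded that among DFAT arrays in 25 of the 30, with medians of 0.14 in DFAT cells and 0.29 in AC, beside 0.12 in DFAT cells and 0.24 in AC over all probe sets. AC carried markers of endothelial cells, epithelial cells and leukocytes, and some markers of stromal cells. The part of those cells in the Tet2, Dnmt3a and Ezh1 levels of AC was not tested.

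Tet1, an enzyme of embryonic stem cells and the early germ line, was dim in both groups. Probe set 1429448_s_at read 5.99, 5.61 and 5.83 on the DFAT arrays and 5.40, 5.01 and 4.85 on the AC arrays. The groups did not overlap and the difference was 0.72 (0.30 to 1.15, adjusted p = 0.0149), but only 2 of the 3 DFAT arrays and none of the AC arrays were above background level. Against the background level of AC the difference was 0.03, and the call was also lost without DFAT replicate 1 (adjusted p = 0.0666) or DFAT replicate 3 (adjusted p = 0.0561). Probe sets 1455425_at (1.13, adjusted p = 0.00218) and 1419896_at (0.76, adjusted p = 0.0305) were higher too while at background level in both groups, though 1419896_at did not pass when any of 4 arrays was left out (DFAT replicate 1 or 3, AC replicate 2 or 3, adjusted p = 0.0666 to 0.116). Probe set 1419897_at, also at background level in both, had a value of -0.09 (adjusted p = 0.653).

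Tet3, the TET enzyme of the oocyte and of many adult tissues, was reported by a single probe set, 1439324_at. It read 5.78, 6.33 and 6.01 on the DFAT arrays and 6.67, 5.97 and 6.21 on the AC arrays. The groups overlapped, and the difference was -0.25 (-0.76 to 0.27, adjusted p = 0.427).

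**Figure D2:**
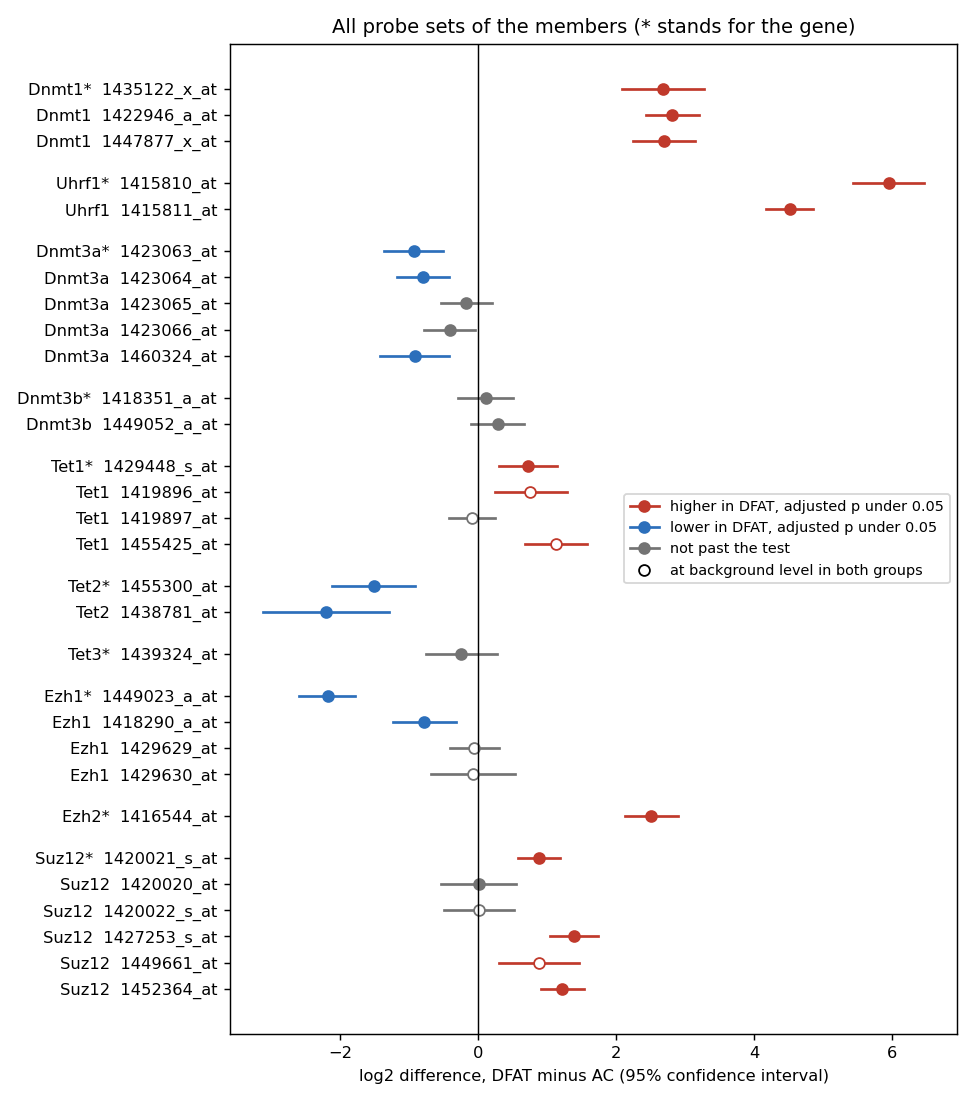
Log2 difference, DFAT minus AC, of all 30 probe sets of the 10 genes, with the 95% confidence interval of the limma fit. Colours mark probe sets higher in DFAT cells (red, 13), lower (blue, 7) and not past the test (grey, 10), and open circles the 7 probe sets at background level in both groups. Both Uhrf1 probe sets stand to the right of all others, at 4.52 and 5.95.

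In PRC2 the 2 alternative catalytic subunits went in opposite directions. Ezh2 read 9.80, 9.71 and 9.87 on the DFAT arrays and 7.01, 7.28 and 7.56 on the AC arrays by its only probe set, 1416544_at. The DFAT arrays were close together and clear of every AC array, and the difference was 2.51 (2.13 to 2.90, adjusted p = 1.19e-05) or 5.71-fold. Ezh1 read 6.61, 6.72 and 6.79 on the DFAT arrays and 9.15, 8.56 and 8.95 on the AC arrays by probe set 1449023_a_at. Here AC was the higher group on every array, by 4.54-fold, and the difference was -2.18 (-2.59 to -1.78, adjusted p = 3.48e-05).

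Within each array, Ezh2 minus Ezh1 was greater by 4.70 in DFAT cells than in AC, with an SD of 0.10 in DFAT cells and 0.47 in AC. The 3 DFAT values lay above the 3 AC values (exact permutation p = 0.1, the smallest possible). Here too the outcome was fixed in advance by the opposite directions of the genes and adds no support. Of the other Ezh1 probe sets, 1418290_a_at read 5.98, 6.16 and 5.93 in DFAT cells and 7.03, 7.01 and 6.38 in AC, a difference of -0.78 (adjusted p = 0.0158) that did not pass without AC replicate 2 (adjusted p = 0.0528), DFAT replicate 1 (0.0608) or DFAT replicate 3 (0.0644), nor with the hybridization controls (-0.32, adjusted p = 0.331). Probe sets 1429629_at (-0.06) and 1429630_at (-0.08) were at background level in both groups and did not pass.

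Suz12, which holds the complex together, was higher in DFAT cells by 3 bright probe sets, with smaller differences than that of Ezh2. Probe set 1420021_s_at read 9.09, 8.99 and 8.83 on the DFAT arrays and 8.01, 8.17 and 8.07 on the AC arrays (0.89, 0.58 to 1.19, adjusted p = 0.00112). Probe set 1427253_s_at read 8.57, 8.52 and 8.57 in DFAT cells and 7.32, 7.26 and 6.90 in AC (1.39, adjusted p = 0.000178), and 1452364_at read 8.01, 8.07 and 7.93 in DFAT cells and 6.68, 6.96 and 6.70 in AC (1.22, adjusted p = 0.000215). In each of the 3 the lowest DFAT array lay above the highest AC array. Probe set 1449661_at was higher by 0.88 (adjusted p = 0.0249) at background level in both groups, and not without DFAT replicate 1 (adjusted p = 0.0991) or DFAT replicate 2 (0.0942), while 1420020_at and 1420022_s_at had values of 0.01 each and did not pass.

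The directions of the members with the greatest differences did not depend on how the arrays were scaled. The 13 reference genes used for an alternative scaling averaged 11.69 to 11.72 on the DFAT arrays and 11.19 to 11.34 on the AC arrays. Of these 13 genes, 8 were called higher in DFAT cells and 2 lower, so the set was itself not level between the groups. Centring on them moved the median of all probe sets to -0.50, against -0.06 as deposited, and centring on 18 hybridization control probe sets moved it to 0.40. The share of calls that were higher in DFAT cells was 52.9% as deposited, 63.0% after centring on array medians, 19.7% after centring on reference genes and 78.5% after centring on hybridization controls. Under these scalings Uhrf1 stayed between 5.51 and 6.41, Dnmt1 between 2.25 and 3.14 and Ezh2 between 2.08 and 2.98. Suz12 stayed between 0.45 and 1.35, Ezh1 between -2.62 and -1.72 and Tet2 between -1.94 and -1.05, and all 6 passed the test each time. Tet1 had a value of 0.29 with the reference genes and did not pass, and Dnmt3b and Tet3 changed sign, Dnmt3b to -0.33 with the reference genes and Tet3 to 0.22 with the hybridization controls.

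**Figure D3:**
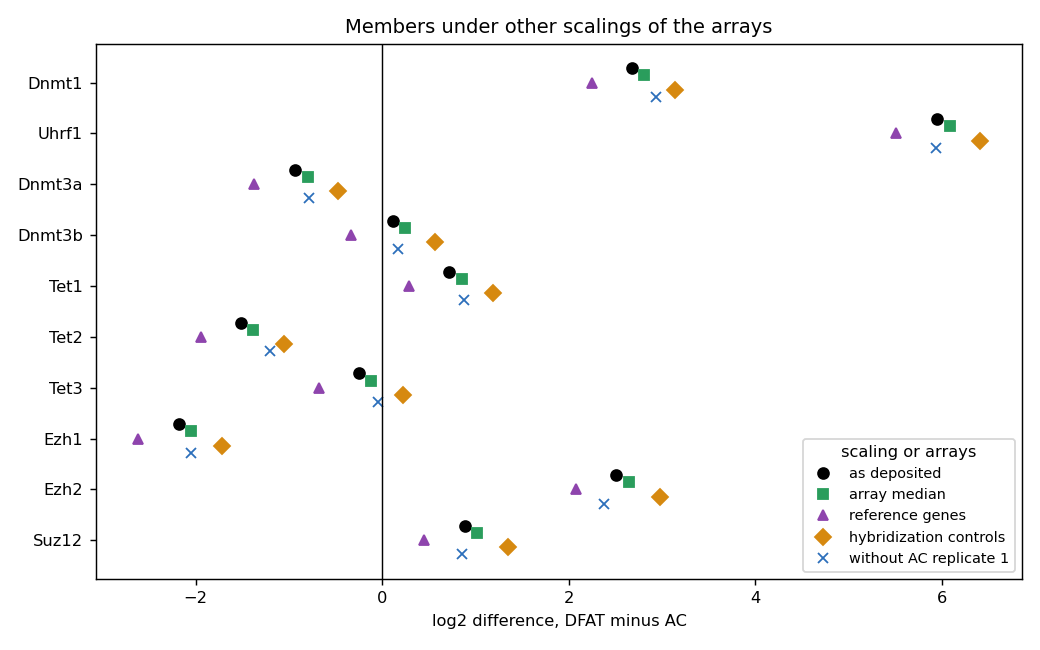
Log2 difference, DFAT minus AC, of the 10 genes (1 probe set each) with the deposited values, 3 other scalings of the arrays, and without AC replicate 1. Uhrf1, Dnmt1, Ezh2 and Suz12 lie to the right of 0 and Dnmt3a, Tet2 and Ezh1 to the left under every one of them, while Dnmt3b and Tet3 lie on both sides.

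Of 99 measured genes that work with the members, 40 were higher in DFAT cells, 19 lower and 40 not past the test, with a median of 0.36. These counts, and those of the single lists that follow, stand beside 22.6% of all genes called higher and 23.8% called lower, and lists this short give no more than a description. Among partners of the DNA methyltransferases 9 of 17 were higher and none lower, with a median of 0.52. Pclaf, a factor bound to the replication clamp, had the largest difference (6.56, adjusted p = 6.34e-08) and was at least 55.0-fold higher, since AC were at background level. Cdca7, which recruits the remodeller Hells in maintenance of methylation, was at least 5.70-fold higher (adjusted p = 9.43e-06), and Lig1, the ligase of Okazaki fragments, was higher by 3.32 (adjusted p = 1.16e-05). Among methyl-CpG readers 4 of 8 were higher and 1 lower. Zbtb4, a zinc finger protein that binds methylated CpG, fell by 2.45 (adjusted p = 5.82e-06), while Mbd3 of the NuRD complex (1.13) and Zbtb38 (1.03) were higher.

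Genes that act beside or after the TET enzymes were divided, with 4 of 15 higher and 5 lower (median 0.10). The 4 became 1 without DFAT replicate 3, 2 without DFAT replicate 1 and 6 without AC replicate 1. Gadd45b and Gadd45a, stress response genes linked to demethylation, were lower, with differences of -3.21 (adjusted p = 4.88e-05) and -2.05 (adjusted p = 0.00787). Gadd45a varied among the AC arrays (9.13, 11.09 and 10.74), and with 1 array left out its difference ran from -2.64 to -1.66 (limma adjusted p at most 0.036). The glycosylase Neil3 was at least 1.12-fold higher in DFAT cells (adjusted p = 1.16e-05, but 0.501 with values floored at the background level). The list of methyl donor and 2-oxoglutarate supply also holds enzymes that use the methyl donor, such as Gnmt and Nnmt. Its genes were mostly lower, 8 of 13 against 2 higher, with a median of -0.82. Mat1a (0.03, at background level in both groups) and Mat2b (-0.12, adjusted p = 0.588), of methyl donor synthesis, did not pass the test. Mat2a was not among the 13 measured genes, so methyl donor synthesis is covered only in part. Idh1, which makes 2-oxoglutarate and NADPH in the cytosol, fell by 2.50 (adjusted p = 4.07e-06), and Ahcyl2 fell by 2.11 (adjusted p = 7.07e-05). Ahcy, which clears S-adenosylhomocysteine, the product that inhibits methyltransferases, was higher by 2.66 (adjusted p = 4.68e-06). White adipocyte markers fell alongside this list, and their part in it was not tested.

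Among PRC2 partners 4 of 11 were higher and 2 lower (median 0.39). Rbbp7, a histone chaperone of the core complex, was higher by 1.36 (adjusted p = 6.67e-05), and Jarid2 and Phf1, accessory subunits that define separate forms of PRC2, were lower, with differences of -1.72 (adjusted p = 0.00014) and -1.29 (adjusted p = 0.00084). Eed, the core subunit that binds the methylated mark, and Rbbp4 were looked up for their place in the core after the values had been seen, and were higher by 0.69 (adjusted p = 0.0041) and 0.87 (adjusted p = 0.00104). The demethylase Kdm6b fell by 1.87 (adjusted p = 0.00101), and Kdm6a fell by 1.07 (adjusted p = 0.00138), a call lost with the hybridization controls (-0.60, adjusted p = 0.0551). Uty, the copy of Kdm6a on the Y chromosome, was at least 1.38-fold higher in DFAT cells, with AC at background level.

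The value of Uty led to a look at other sex-linked genes. Xist, the RNA of the inactive X chromosome, read 5.56, 5.28 and 5.46 on the DFAT arrays and 12.87, 11.92 and 11.95 on the AC arrays by probe set 1436936_s_at. The Y-linked gene Eif2s3y (1417210_at) read 8.51, 8.07 and 8.21 in DFAT cells and 3.13, 2.80 and 3.48 in AC. The groups thus differed in Xist and Y-linked RNA on every array, and for X- or Y-linked genes such as Kdm6a, Uty, Rbbp7 and Hcfc1 this cannot be told apart from the cell type. None of the 10 members lies on the X or Y chromosome. The difference in sex-linked RNA went with the group on every array, however. A part of the sex of the source in the members' levels was not tested and cannot be told apart from the cell type either.

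PRC1, the other Polycomb complex, which binds the PRC2 mark or ubiquitinates histone H2A, had 12 of 22 subunits higher and 1 lower (median 0.42). Its chromodomain subunits, which read the mark, were divided. Cbx2 was at least 2.92-fold higher in DFAT cells (adjusted p = 0.000375) and Cbx6 was higher by 1.63 (adjusted p = 3.22e-05), whereas Cbx7 was at background level in DFAT cells and at least 3.62-fold higher in AC (adjusted p = 6.53e-06). In the H2A deubiquitinase complex 3 of 7 were higher and none lower, with Foxk2 at 0.93 (adjusted p = 0.00522), Asxl1 at 0.74 (adjusted p = 0.00557) and Hcfc1 at 0.65 (adjusted p = 0.0124). With the reference genes Asxl1 (0.30, adjusted p = 0.0942) and Hcfc1 (0.21, adjusted p = 0.314) did not pass, and Hcfc1 did not pass without DFAT replicate 3 (adjusted p = 0.0587) or after a further quantile normalization. Not every probe set of the named related genes passed the test. Pclaf had 1 at -0.11, Cdca7 had 1 at 0.19 and Cbx2 had 1 at 0.31, none of them called. Ahcyl2, Cbx7, Foxk2, Kdm6a, Uty and Zbtb4 also had probe sets that were not called. None of the named related genes had a probe set called in the opposite direction.

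**Figure D4:**
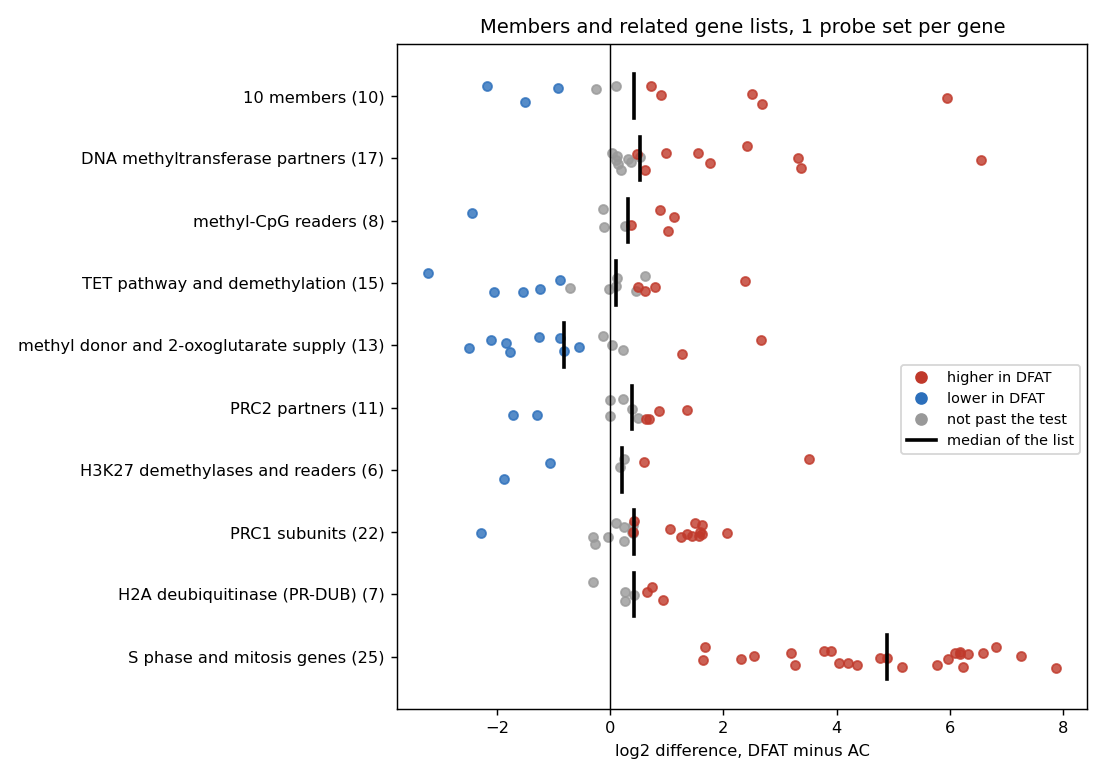
Log2 difference, DFAT minus AC, of each gene (1 probe set each) in the 10 members, 8 lists of related genes and the S phase and mitosis genes. Each point is a gene, coloured by its call, and the black bar is the median of the list, which runs from -0.82 for methyl donor and 2-oxoglutarate supply to 4.90 for the S phase and mitosis genes.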

How the data were processed

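RNA of 3 DFAT and 3 AC arrays was extracted with TRIzol and hybridised to GeneChip Mouse Genome arrays by the authors. The deposited values are log2 RMA values, background-corrected, quantile-normalised and summarised per probe set by the authors in R, and the RMA version and the set of arrays normalised together are not given in the sources used here. Hepatocyte and liver stem cell arrays of the study were not analysed here. The number of arrays limits the precision.

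From these values DFAT minus AC was fitted with limma 3.58.1 (R 4.3.3; lmFit, eBayes, two-sided) on 45037 probe sets, leaving out 64 control probe sets, with Benjamini-Hochberg adjustment over all of them and a threshold of 0.05. Of the probe sets, 34945 had 1 gene symbol in the platform annotation, 932 had several and 9160 had none. Each gene was taken from the probe set whose mean over the 6 arrays was highest. A probe set was at background level in a group when at or under the level on every array of the group. An "at least" fold sets the mean of the brighter group against the mean, over the dimmer group's arrays, of the higher of the background level and the probe set's own value. Named related genes were up to 3 per list with the largest differences among those past the test whose groups did not overlap, and, for the 3 members with the largest differences, the 3 genes of nearest profile. Within-array differences were tested by exact permutation. On simulated data (45037 probe sets, 200 changed) the fit recovered 36% of changes of log2 size 1 and 81% of size 2, with 6 false calls. The simulation changed far fewer probe sets than the 38.4% called in the data, and it gave both groups the same spread. The shares recovered therefore do not give the power of the real comparison. The members and the gene lists were chosen with earlier results of these data known, so they give no independent support. The alternatives were 4 scalings, a floor, a filter on dim probe sets, other variance models, array weights, a replicate block, each array left out, the methods' fold rule, and other choices of probe set.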

Additional observations from a re-analysis of the deposited data

How the results depend on the processing

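Uhrf1, Dnmt1, Ezh2, Tet2, the bright Ezh1 probe set and the 3 bright Suz12 probe sets kept their direction and call under all 16 alternatives run for each. The member counts ranged from 10 to 14 probe sets higher and 6 to 8 lower when 1 array was left out. Without a test, the methods' fold rule (over 2 log2 units) gave 1739 probe sets higher and 2005 lower, of them 6 and 2 of the members, or 3 genes higher and 1 lower. Requiring in addition to the adjusted p a difference of at least 1 gave 5316 higher and 4347 lower, with 3 member probe sets lower and 3 member genes higher. Centred on reference genes, 5853 probe sets were higher and 23929 lower, 12 member probe sets were lower, and 25 related genes were higher and 30 lower (2 methyl-CpG readers, 1 gene of the TET pathway, 2 PRC2 partners and 1 of the H2A deubiquitinase higher; 1 methyltransferase partner, 3 readers, 4 PRC1 subunits and 1 of the deubiquitinase lower). Centred on hybridization controls, 3405 probe sets were lower, 3 of them of members, as were 3 genes of the TET pathway and 5 of methyl donor and 2-oxoglutarate supply, and 6 of the deubiquitinase were higher, against 5 centred on the array median. With the 99th percentile of the background genes as the background level, 19 member probe sets were at it in DFAT cells, against 8 with the 95th.

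Centred on hybridization controls, the values were -0.47 for Dnmt3a 1423063_at (adjusted p = 0.151), 0.30 for 1423065_at, 0.05 for 1423066_at, 0.22 for Tet3, 0.37 for Tet1 1419897_at, 0.41 for Ezh1 1429629_at and 0.39 for 1429630_at. Centred on reference genes they were -0.33 for Dnmt3b 1418351_a_at, -0.15 for 1449052_a_at, 0.29 for Tet1 1429448_s_at, -0.68 for Tet3 (adjusted p = 0.0367), -0.42 for Suz12 1420020_at and -0.43 for 1420022_s_at. With values floored at the background level they were 0.03 for Tet1 1429448_s_at, -0.02 for Dnmt3b 1449052_a_at, -0.05 for Suz12 1420020_at, and -0.06 for Tet1 1419896_at and 1455425_at and Suz12 1420022_s_at and 1449661_at, by construction the gap between the groups' floors where all values were floored. Centred on the array median, Tet1 1419897_at had 0.04, Ezh1 1429629_at 0.08 and 1429630_at 0.05, and after a further quantile normalization these had 0.05, 0.06 and 0.06, while array weights gave 0.03 for Ezh1 1429629_at. Leaving out 1 array gave -0.07 to 0.22 for Dnmt3b 1418351_a_at, 0.61 to 0.88 for Tet1 1429448_s_at, -0.18 to 0.01 for Tet1 1419897_at, -0.17 to 0.03 for Ezh1 1429629_at, -0.23 to 0.16 for Ezh1 1429630_at, -0.19 to 0.24 for Suz12 1420020_at and -0.18 to 0.22 for Suz12 1420022_s_at. Apart from the floor, the cause of these changes was not tested.

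Arrays with the same replicate number did not deviate together, with correlations of -0.0156, -0.027 and 0.0132. No DFAT array correlated best with the AC array of its own number. These values showed no pairing by number, but they cannot tell whether arrays of the same number share a source. With the replicate number as a block 13 member probe sets were higher and 7 lower, and 8639 of all probe sets were higher and 7384 lower.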
